A study of Mus musculus with 8 samples.

Results

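The genes described here are the nuclear-encoded subunits of the respiratory chain and ATP synthase, with 84 of the 24421 genes in the count tables chosen by their symbols. This choice was made with earlier results of these data known. Symbols that begin with Nduf were placed in complex I (37 genes), Sdha to Sdhd in complex II (4), Uqcr in complex III (8), Cox4 to Cox8 in complex IV (18) and Atp5 in complex V, the ATP synthase (17). RNA was taken from the hippocampus of wildtype C57BL/6J offspring labelled male. The 4 groups were IUGR at week 8, NS at week 8, IUGR at postnatal day 3 and NS at postnatal day 3, with 2 libraries in each and 8 in all. IUGR stands for offspring of dams injected intraperitoneally with dexamethasone, a synthetic glucocorticoid, at 1 mg/kg per day for 5 days from 14.5 days post coitum, and NS for offspring of dams injected with saline. The labels describe growth restriction through this maternal drug model only, and name neither litters nor the animals behind a library. What p-values measure here is thus only how these samples scatter, and that scatter may be technical.

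The respiratory chain sits in the inner mitochondrial membrane. Complexes I and II pass electrons from NADH and succinate to coenzyme Q, complex III hands them to cytochrome c, and complex IV reduces oxygen to water. Complexes I, III and IV pump protons, and complex V lets them flow back to make ATP, much of which neurons spend on pumping ions. Complexes I, III, IV and V are built from subunits of both genomes, and the mitochondrially encoded ones were not analysed here. Several complex IV subunits come as a pair of isoforms, a common one and one typical of heart and skeletal muscle, lung or testis. A symbol is not always a subunit: Ndufa4 protein is now placed in complex IV, Cox7a2l is a supercomplex assembly factor, and Atp5s and Atp5sl have since been renamed Dmac2l and Dmac2.

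Libraries held between 13030277 and 18993050 counts, and values are given as CPM, counts scaled to a common library total. Of the 84 members, 83 had counts and 80 passed the expression filter that left 15999 genes for testing. Cox7b2, Cox8b and Cox8c were too low. Ndufs5 was listed at 0 counts in every library. That does not show the gene to be silent, as the treatment of multiply matching reads is not given. The files disagree with the labels or between replicates in several places. At postnatal day 3 the libraries numbered 2 had 5130 (IUGR) and 4998 (NS) counts of Xist, and 74 (IUGR) and 34 (NS) Y-linked counts, although all are labelled male. At week 8 the libraries numbered 2 had 2 (IUGR) and 0 (NS) counts of Rpph1, an RNA that took 4.91 to 7.69% of every other library. Of all members, 29 have exons that overlap another gene in the GENCODE M21 annotation, and the strand setting of the counting is not given in the sources used here, so their counts may hold reads of a neighbour.

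With group means fitted to all 8 libraries, 6 members passed the test between ages in IUGR and 2 of the 6 in NS, all of them higher at week 8. In IUGR 6 members were higher and 0 were lower, against 9.34% of all genes tested that were called higher and 7.48% called lower (edgeR quasi-likelihood F test, Benjamini-Hochberg adjustment over all genes, adjusted p under 0.05). In NS 2 members were higher and 0 were lower, against 7.7% and 6.44% of all genes. The 6 of 80 in IUGR are 7.50% of the members and the 2 of 80 in NS are 2.50%, so neither share exceeded that of all genes. The log2 fold changes of all 80 members had a median of -0.08 in IUGR and -0.25 in NS, beside 0.02 and 0.04 over all genes. At an unadjusted p under 0.05, 0 members were lower in IUGR and 1 in NS, while DESeq2 called 7 higher in IUGR and 4 in NS, limma voom 6 and 2, and both 0 lower. These counts depended on single libraries. Without either IUGR library of postnatal day 3, 0 members were called in IUGR, and without either NS library of postnatal day 3, or IUGR replicate 2 of week 8, 2 were. In NS 0 were called without any 1 of the 4 postnatal day 3 libraries, and without NS replicate 1 of week 8 there were 3 higher and 5 lower. Without the 2 postnatal day 3 libraries that carry Xist, 0 members were called in both IUGR and NS, as were 0 of all 16322 genes then tested. The medians moved as well: without IUGR replicate 1 of week 8 the IUGR median was -0.61 and without IUGR replicate 2 it was 0.28, and without NS replicate 1 of week 8 the NS median was -0.86 and without NS replicate 2 it was 0.10.

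Sdha, the flavoprotein subunit of complex II that oxidises succinate and also works in the citrate cycle, lies on chromosome 13, 74322254 to 74350280, minus strand (mm10, as are all positions here). It had 349.8 and 383 CPM in IUGR and 337 and 365 CPM in NS at week 8, against 142 and 151 CPM in IUGR and 156 and 151 CPM in NS at postnatal day 3. All 4 week 8 libraries lay above all 4 of postnatal day 3, and replicates differed little. Its log2 fold change was 1.43 ± 0.20, adjusted p = 0.00816 in IUGR and 1.22 ± 0.19, adjusted p = 0.0133 in NS (edgeR, ± SE). Cox8a, the common isoform of a small complex IV subunit (chromosome 19, 7215153 to 7217616, minus strand), had 502 and 497 CPM in IUGR and 485 and 362 CPM in NS at week 8, against 150.4 and 172 CPM in IUGR and 191 and 179.8 CPM in NS at postnatal day 3. The ages did not overlap, and NS replicate 2 was the lowest of the week 8 libraries. The log2 fold change was 1.74 ± 0.23, adjusted p = 0.0074 in IUGR and 1.22 ± 0.23, adjusted p = 0.0203 in NS (edgeR). Cox6a1, the common isoform of another complex IV subunit (chromosome 5, 115345642 to 115348981, minus strand), had 309 and 492 CPM in IUGR and 289 and 360.3 CPM in NS at week 8, against 145 and 171 CPM in IUGR and 183 and 176 CPM in NS at postnatal day 3. Again the ages did not overlap, while the week 8 replicates lay far apart in IUGR. The call was made in IUGR (1.45 ± 0.29, adjusted p = 0.0209) and missed in NS (0.88 ± 0.28, adjusted p = 0.0867, edgeR).

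The other members called in IUGR were lower expressed or moved less. Atp5sl (chromosome 7, 25619414 to 25625551, plus strand), now named Dmac2 and counted under complex V by its old symbol, had 29.9 and 42.5 CPM in IUGR and 27.6 and 37.8 CPM in NS at week 8, against 14.4 and 17.6 CPM in IUGR and 16.6 and 20.2 CPM in NS at postnatal day 3. Its log2 fold change was 1.28 ± 0.29, adjusted p = 0.0293 in IUGR and 0.86 ± 0.29, adjusted p = 0.0939 in NS (edgeR). Ndufs7 (chromosome 10, 80249121 to 80256794, plus strand), which holds the iron-sulphur cluster next to the coenzyme Q site of complex I, had 71.6 and 105 CPM in IUGR and 67.2 and 77.1 CPM in NS at week 8, against 43.1 and 52.9 CPM in IUGR and 47.5 and 47.6 CPM in NS at postnatal day 3. It differed by 0.99 ± 0.25, adjusted p = 0.0405 in IUGR and 0.63 ± 0.25, adjusted p = 0.135 in NS (edgeR). Ndufs8 (chromosome 19, 3908863 to 3912774, minus strand), another iron-sulphur subunit of complex I, had 83.9 and 89.3 CPM in IUGR and 76.7 and 66.5 CPM in NS at week 8, against 57.8 and 55.4 CPM in IUGR and 60.5 and 51.5 CPM in NS at postnatal day 3. It differed by 0.72 ± 0.19, adjusted p = 0.0467 in IUGR and 0.38 ± 0.19, adjusted p = 0.213 in NS (edgeR). For these 3 genes too, every week 8 library lay above every postnatal day 3 library. A call in IUGR and none in NS does not show that the age effect differed. The test of that difference was past the threshold for 0 members. Ndufs8 also missed the threshold with upper-quartile factors, with no count filter and without small RNA genes. None of the 6 has exons that overlap another annotated gene.

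**Figure D1:**
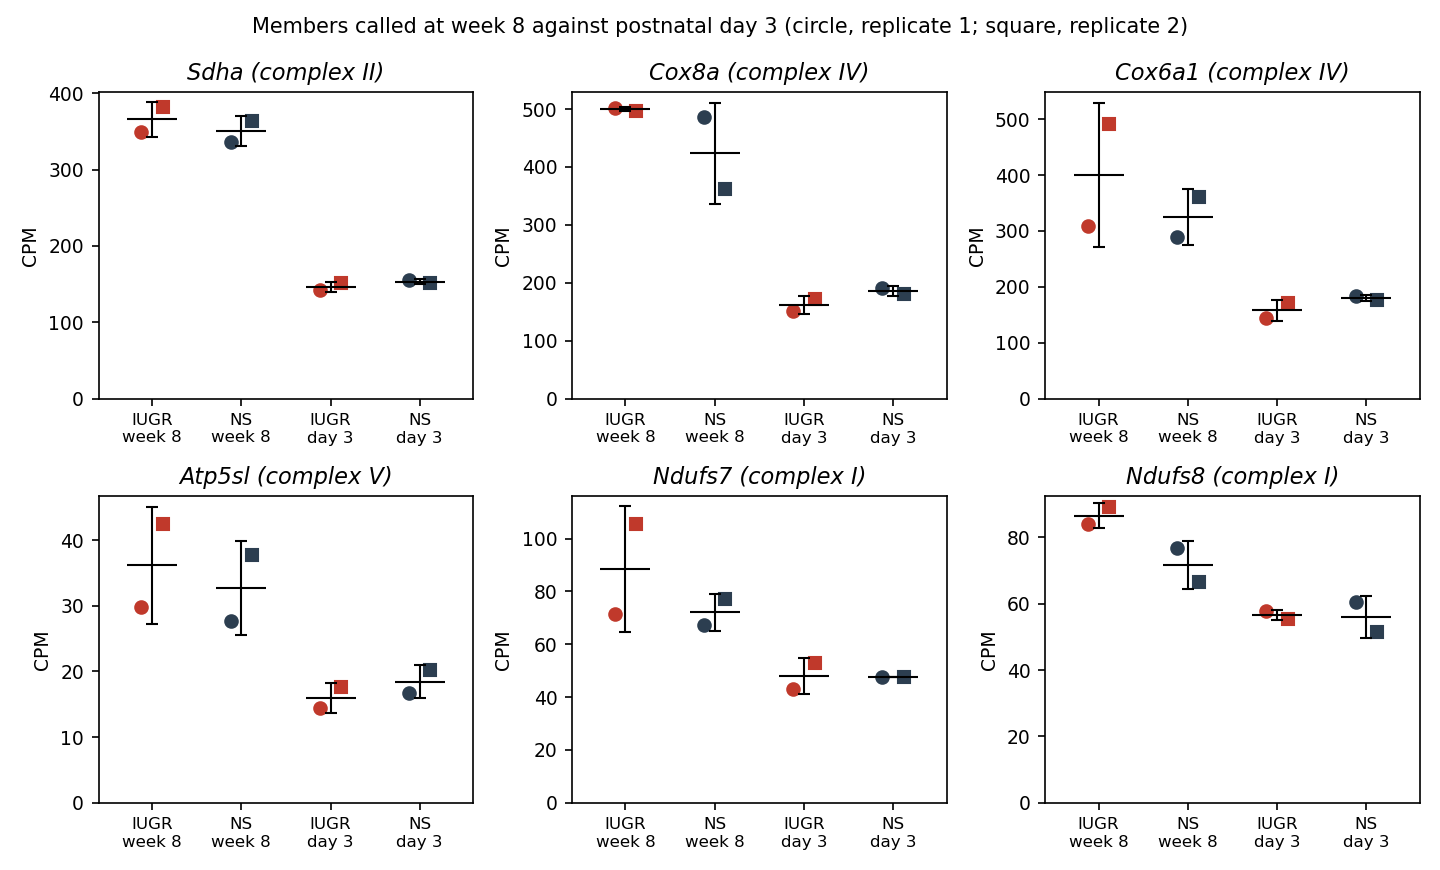
CPM (vertical axes, from 0) of the 6 members called at week 8 against postnatal day 3 in IUGR, by group; circles are replicate 1, squares replicate 2, red IUGR, dark blue NS, with bars at the mean ± SD of 2 libraries. For every one of the 6 genes all 4 week 8 libraries lie above all 4 libraries of postnatal day 3.

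Respiratory chain promoters often carry sites for NRF1, for ETS factors such as GABPA and for YY1, factors known to drive nuclear genes of the mitochondrion. The sequences of 4 called members are shown to let these letters be seen: 225 bases before and 30 after the start of transcription in RefSeq (GRCm38.p6), 5′ to 3′ on the strand of the gene. Capitals mark a match on either strand to GCGCATGCG (NRF1), CCGGAAG (ETS) or AAGATGGCG (YY1).
Sdha, chr13:74350211-74350465, - strand: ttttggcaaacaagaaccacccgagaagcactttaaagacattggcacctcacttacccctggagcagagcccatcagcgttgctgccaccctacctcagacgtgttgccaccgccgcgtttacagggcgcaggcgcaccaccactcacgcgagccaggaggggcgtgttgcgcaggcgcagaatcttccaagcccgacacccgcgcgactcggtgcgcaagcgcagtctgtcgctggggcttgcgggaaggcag
Cox8a, chr19:7217587-7217841, - strand: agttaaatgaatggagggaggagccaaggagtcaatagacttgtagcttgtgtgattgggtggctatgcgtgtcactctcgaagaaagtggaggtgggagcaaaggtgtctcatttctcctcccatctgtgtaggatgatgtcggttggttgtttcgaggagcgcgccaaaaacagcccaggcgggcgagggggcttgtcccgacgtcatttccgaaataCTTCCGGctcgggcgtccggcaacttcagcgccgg
Cox6a1, chr5:115348929-115349183, - strand: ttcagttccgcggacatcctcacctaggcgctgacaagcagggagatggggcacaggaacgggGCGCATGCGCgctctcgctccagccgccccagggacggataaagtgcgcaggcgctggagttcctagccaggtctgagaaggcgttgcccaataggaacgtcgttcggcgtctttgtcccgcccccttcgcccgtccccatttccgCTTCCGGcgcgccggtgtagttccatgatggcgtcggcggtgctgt
Atp5sl, chr7:25619268-25619522, + strand: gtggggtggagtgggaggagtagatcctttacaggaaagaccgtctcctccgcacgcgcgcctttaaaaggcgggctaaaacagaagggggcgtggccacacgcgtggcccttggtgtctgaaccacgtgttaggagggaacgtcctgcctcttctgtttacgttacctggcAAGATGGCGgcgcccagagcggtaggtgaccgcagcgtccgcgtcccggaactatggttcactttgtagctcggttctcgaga
Sdha holds no match to these letters in the stretch shown. In Cox8a an ETS match overlaps the start itself, and a second lies beyond the stretch shown. Cox6a1 has an NRF1 match on both strands, the capitals there being a palindrome, and an ETS match close to the start. In Atp5sl, which has 2 starts in the table, a YY1 match lies upstream of the start shown and downstream of the other. Over windows of 250 bases before and 50 after the start, 70 of the 84 members were matched to the table. Of these 70, 8 (11.4%) held the NRF1 letters, against 1.95% of all 27025 genes in the table, 16 (22.9%) the ETS letters, against 9.93%, and 8 (11.4%) the YY1 letters, against 1.64%. At least 1 of the 3 stood in 27 members (38.6%) and in 12.7% of all genes. A match describes the letters only and does not show that a factor binds.

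At week 8 the largest differences among the members lay between the 2 replicates, in the same direction in IUGR and NS. The median of replicate 2 minus replicate 1 over the 80 members was -0.76 in IUGR and -0.90 in NS on the log2(CPM + 1) scale, beside -0.00 and -0.04 over all genes tested. Replicate 2 was above replicate 1 for only 16 of the 80 members in IUGR and 15 in NS. At postnatal day 3 the same medians were -0.01 in IUGR and -0.14 in NS. Across the 80 members the replicate differences of IUGR and NS correlated at 0.936 at week 8 and 0.436 at postnatal day 3 (Pearson r over genes of the same libraries, which are not independent), and across all genes tested at 0.854 and -0.075. The labels name no shared batch for libraries of the same number.

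**Figure D2:**
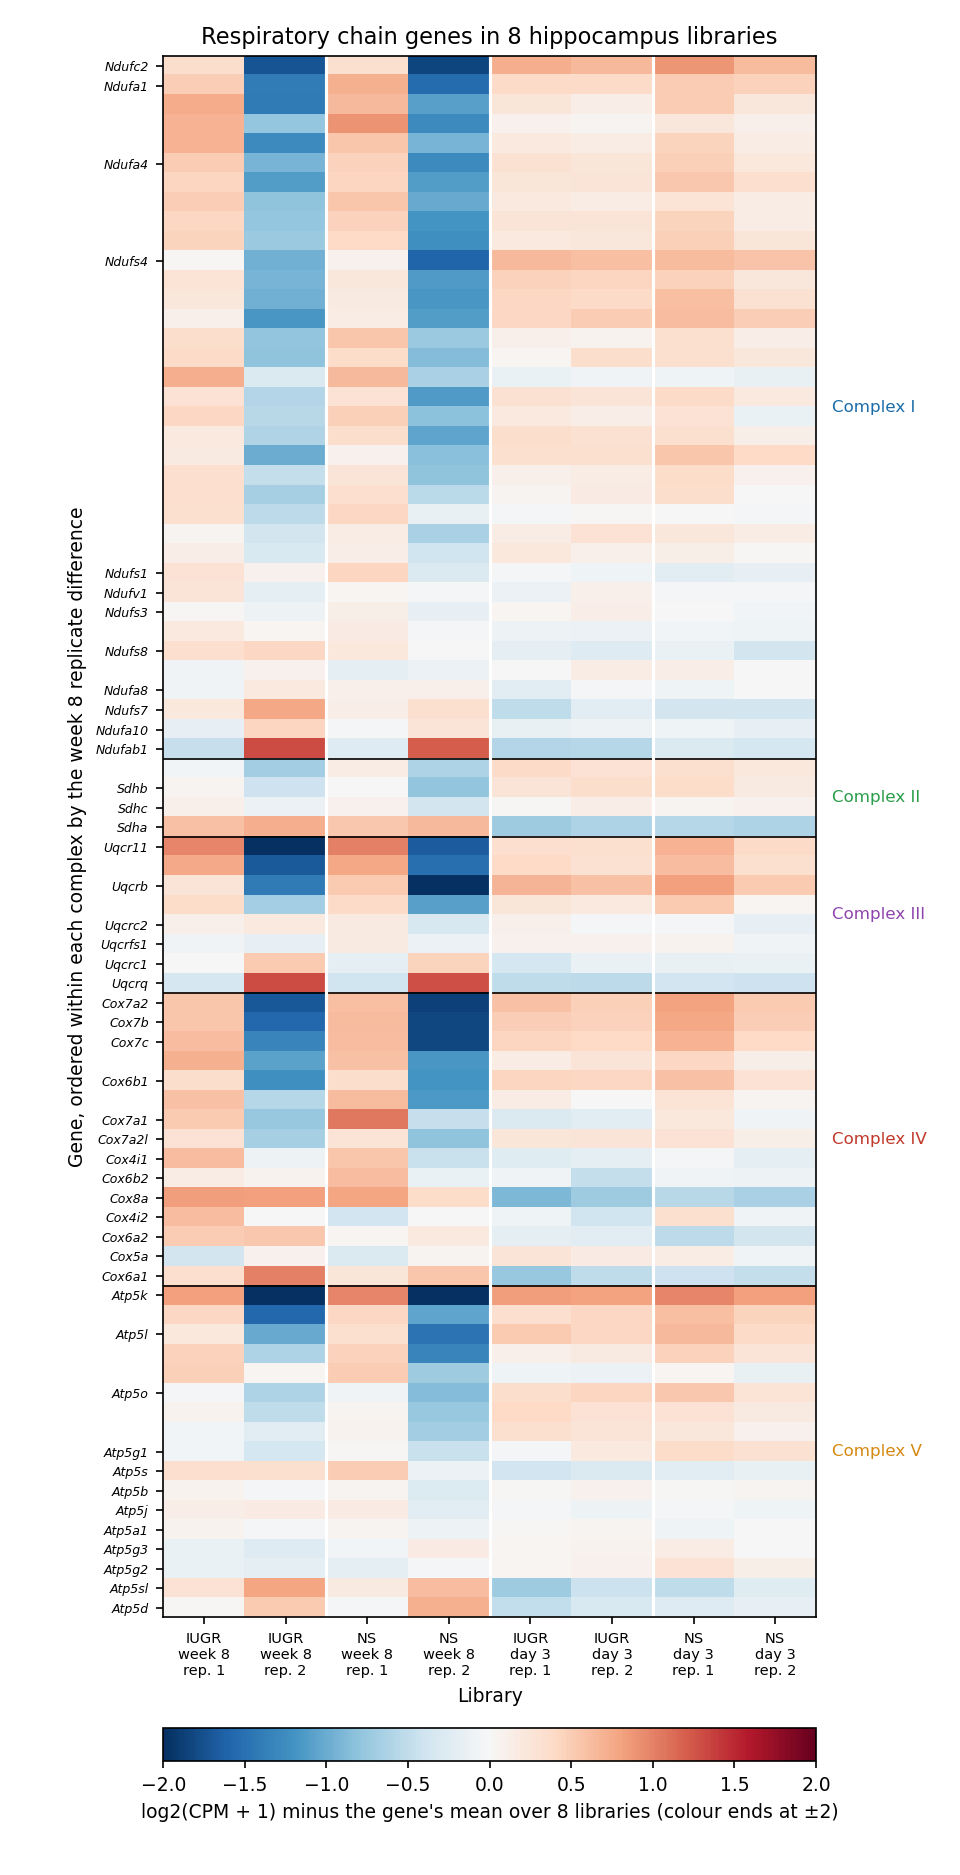
Each tested member (rows, by complex, with some of the names) in each library (columns), coloured by log2(CPM + 1) minus the gene's mean over the 8 libraries; rows are ordered within a complex by the week 8 replicate difference. The columns of replicate 2 at week 8 are blue for most members of every complex in both IUGR and NS, with Uqcrq and Ndufab1 red, while the 4 columns of postnatal day 3 are alike.

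Several small subunits stood furthest apart. Atp5k, the e subunit that helps ATP synthase form dimers, had 237 and 16.1 CPM in IUGR and 265 and 27.0 CPM in NS at week 8 (replicates 1 and 2), where the replicates differ far more than the groups. Uqcr11, a small subunit of complex III, had 397 and 47.8 CPM in IUGR and 405 and 62.8 CPM in NS. Cox7a2, the common isoform of a complex IV subunit, had 507 and 106 CPM in IUGR and 524 and 94.0 CPM in NS, and Cox7c, another small subunit, 659 and 172 CPM in IUGR and 660.4 and 121 CPM in NS. A few members went the other way. Uqcrq, a small complex III subunit, had 30.6 and 97.5 CPM in IUGR and 29.3 and 96.6 CPM in NS, and Ndufab1, the mitochondrial acyl carrier protein that is also a complex I subunit, 21.3 and 75.2 CPM in IUGR and 24.8 and 70.1 CPM in NS. Uqcrc1, Cox6a1, Ndufa10 and Atp5d were also higher in replicate 2 in both IUGR and NS, by 0.29 to 0.75 on the log2(CPM + 1) scale.

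These differences were largest among the shortest members. Members are short, with a median length in the count tables of 725.5 bases against 2882 for all genes tested, and 53 of the 80 are at most 1000 bases long. For the 14 members of up to 500 bases the median of replicate 2 minus replicate 1 at week 8 was -1.49 in IUGR and -1.58 in NS. It was -1.01 and -1.22 for the 28 members over 500 and up to 750 bases, and 0.13 and 0.08 for the 5 members over 2000 bases. All genes tested in the same length ranges had medians of -0.95 and -0.98, -0.56 and -0.70, and 0.12 and 0.07. The 27 members over 1000 bases had medians of -0.20 in IUGR and -0.54 in NS. All genes tested over 1000 bases had 0.02 and 0.01. Spearman rho of the replicate difference with length was 0.53 in IUGR and 0.50 in NS over the members. Over all genes tested it was 0.04 and 0.09. What part length had in the members' replicate difference was not tested. Short genes did not all go 1 way: of the 1292 genes tested of up to 1000 bases, 347 in IUGR and 306 in NS were higher in replicate 2. Cell type marker lists differed between these replicates to unequal degrees. A list of 10 hippocampal excitatory neuron genes summed to 1688 and 7186 CPM in IUGR and 1590 and 7873 CPM in NS at week 8 (replicates 1 and 2), and to between 745 and 1003 CPM at postnatal day 3. None of the 10 was at 0 in every library. The week 8 replicates lay closer for 7 astrocyte markers, with 4344 and 5099 CPM in IUGR and 4590 and 5274 CPM in NS. The same held for 7 myelin markers, with 4257 and 5551 CPM in IUGR and 5045 and 5488 CPM in NS, and for 6 microglia markers, with 204 and 236 CPM in IUGR and 220.3 and 276 CPM in NS. A list of 7 interneuron markers was also higher in replicate 2. Other lists were lower there. The 6 meninges markers had 1065 and 655 CPM in IUGR and 2166 and 485 CPM in NS. The 7 endothelial and mural markers had 96.1 and 60.5 CPM in IUGR and 161 and 126 CPM in NS. Progenitor markers had 126 and 70.4 CPM in IUGR but nearly equal values of 110 and 106 CPM in NS. Choroid plexus markers had nearly equal values of 64.1 and 62.0 CPM in IUGR. In NS they had 6696 and 79.6 CPM, a gap that rests on replicate 1 alone. What part the sampled cells had in the replicate difference was not tested.

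**Figure D3:**
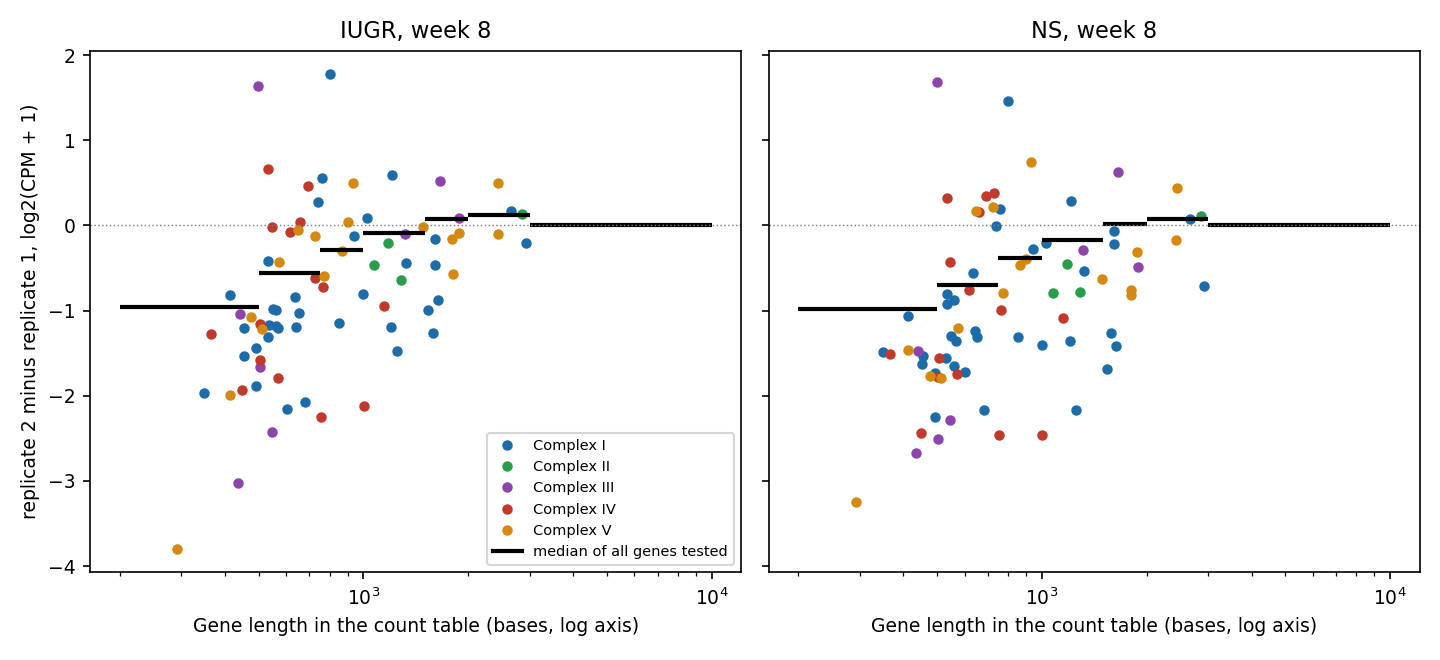
Replicate 2 minus replicate 1 at week 8 on the log2(CPM + 1) scale (vertical axis) against gene length in bases (horizontal log axis), for members coloured by complex, in IUGR (left) and NS (right); black lines are medians of all genes tested in a length range, the first range reaching below and the last beyond the drawn ends. Members of up to 500 bases have medians of -1.49 and -1.58, and the 5 members over 2000 bases (Atp5a1, Atp5sl, Ndufa11, Ndufs1 and Sdha) run from -0.20 to 0.49 in IUGR and from -0.72 to 0.44 in NS.

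The age comparison of most members therefore depended on which week 8 libraries were used. Without both libraries numbered 2 of week 8, 25 members were higher and 2 lower at week 8 in IUGR, against 21.4% and 20.0% of all genes, and 16 were higher and 3 lower in NS, against 18.7% and 19.2%. Without both libraries numbered 1 of week 8, 13 members were higher and 44 lower in IUGR, against 28.2% and 27.8% of all genes, and 10 were higher and 48 lower in NS, against 28.7% and 29.2%. The members' median log2 fold change was 0.29 in IUGR and 0.10 in NS in the first case and -0.58 and -0.85 in the second (edgeR in each). A group left with 1 library is assumed there to vary like the others. With a smooth trend over gene length removed from each library, an adjustment added after the data were seen, 7 members were higher in IUGR and 3 in NS, 0 were lower, and the medians were 0.30 and 0.17. The fold changes of short called members were then larger and less certain: Cox8a had 2.46 and Cox6a1 2.30 on the log2 scale in IUGR, and Cox6a1 and Ndufs7 missed the threshold. The sign of the members' median thus changed with the libraries and with the length adjustment.

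Differences of week 8 minus postnatal day 3 can also be taken within each replicate number of IUGR and of NS, which gives 4 differences that share no library. They are not 4 independent results, as the week 8 replicate differences of IUGR and NS correlated at 0.936. The labels do not pair the ages by number. Those of number 2 set libraries with 1 (IUGR) and 7 (NS) counts of Xist against libraries with 5130 and 4998. Of the 80 members, 12 (15.0%) were higher in all 4, against 26.4% of all genes tested. Among them were Sdha, Cox8a, Cox6a1, Cox6a2, Atp5sl, Atp5s, Atp5d, Ndufs7, Ndufs8, Ndufa8 and Ndufab1. A further 21 (26.2%) were lower in all 4, against 32.1% of all genes: 9 of complex I (Ndufa7, Ndufa11, Ndufb6, Ndufb7, Ndufc2, Ndufs4, Ndufs6, Ndufv2 and Ndufv3), Sdhb and Sdhd of complex II, Uqcrb of complex III, Cox6b1 and Cox7a2 of complex IV, and 7 of complex V (Atp5c1, Atp5f1, Atp5g1, Atp5g2, Atp5k, Atp5l and Atp5o). Ndufs4, a subunit whose loss in mice causes a Leigh-like brain disease, was among these, with 141 and 70.1 CPM in IUGR and 146 and 44.8 CPM in NS at week 8, against 217 and 209.6 CPM in IUGR and 214 and 204 CPM in NS at postnatal day 3. The 2 ages did not overlap for Ndufs4, yet the replicates of week 8 lay far apart, and edgeR gave -0.91 ± 0.56, adjusted p = 0.291 in IUGR and -1.11 ± 0.56, adjusted p = 0.22 in NS. Another 19 members (23.8%) were higher in both differences of replicate 1 and lower in both of replicate 2, against 7.01% of all genes, and 0 showed the reverse, against 7.18%. The remaining 28 were mixed.

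**Figure D4:**
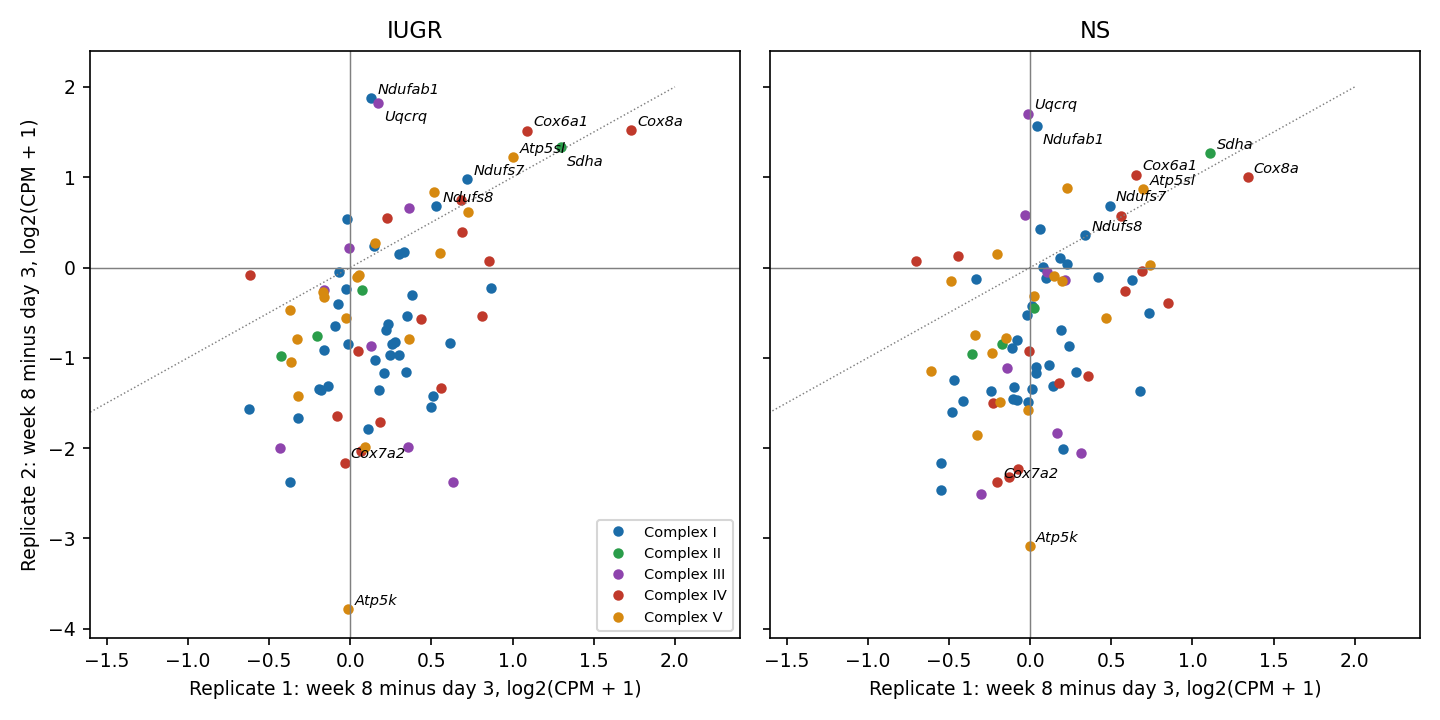
Week 8 minus postnatal day 3 on the log2(CPM + 1) scale within libraries numbered 1 (horizontal axis) and within libraries numbered 2 (vertical axis), 1 point per tested member coloured by complex, in IUGR (left) and NS (right); the dotted line marks equal differences. Sdha, Cox8a, Cox6a1, Atp5sl, Ndufs7 and Ndufs8 lie above 0 on both axes, and most members lie below 0 on the vertical axis only or on both.

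For the summed CPM of each complex, the difference between the mean of week 8 and that of postnatal day 3 was smaller than the week 8 SD, except for complex II in IUGR. That exception was lost with small RNA genes left out of the library totals, where complex II averaged 737 ± 93.3 CPM at week 8 and 649.7 ± 15.5 CPM at postnatal day 3 in IUGR (SD, n = 2 each). On the TPM scale, which also divides by gene length, complexes IV and V were higher at week 8 by more than the week 8 SD in both IUGR and NS, and complex II in NS just so. Complex IV averaged 12526 ± 592 TPM at week 8 and 9458 ± 186 TPM at postnatal day 3 in IUGR, and 10896 ± 1454 TPM and 9154 ± 639 TPM in NS at the same ages (SD, n = 2 each). Complex V averaged 9637 ± 501 TPM at week 8 and 8938 ± 288 TPM at postnatal day 3 in IUGR, and 8944 ± 144 TPM and 8458 ± 183 TPM in NS (SD, n = 2 each). These sums were not tested. TPM divides by a total that includes Rpph1, which was nearly absent only from the libraries numbered 2 of week 8. The scale thus differs between those libraries and the rest, and this enters the week 8 SD. TPM without small RNA genes was not computed. The 37 members of complex I summed to 5628 and 3115 CPM in IUGR and 5683 and 2712 CPM in NS at week 8, against 5005 and 5035 CPM in IUGR and 5452 and 4858 CPM in NS at postnatal day 3. Ndufs1, the large iron-sulphur subunit of the NADH-oxidising arm, had 188 and 163 CPM in IUGR and 206 and 125 CPM in NS at week 8, against 149 and 144 CPM in IUGR and 133 and 137 CPM in NS at postnatal day 3 and was not called (edgeR, 0.36 ± 0.27, adjusted p = 0.373 in IUGR; 0.32 ± 0.27, adjusted p = 0.445 in NS). Ndufv1, the flavin-binding subunit that takes electrons from NADH, stayed within 126 to 174 CPM in the 8 libraries. Ndufa4 was among the most abundant members per base of gene length and had 582 and 215 CPM in IUGR and 563 and 168 CPM in NS at week 8, against 505 and 483 CPM in IUGR and 567 and 475 CPM in NS at postnatal day 3, the week 8 values spanning those of postnatal day 3.

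The 4 members of complex II, which has no mitochondrially encoded subunit, summed to 742 and 671 CPM in IUGR and 739.6 and 611 CPM in NS at week 8, against 597 and 619 CPM in IUGR and 623 and 582 CPM in NS at postnatal day 3. Within the complex the subunits parted. While Sdha was higher at week 8, Sdhb, the iron-sulphur subunit that binds it, had 182 and 132 CPM in IUGR and 176 and 101 CPM in NS at week 8, against 209 and 224 CPM in IUGR and 226 and 198 CPM in NS at postnatal day 3. All week 8 libraries were below all of postnatal day 3 for Sdhb, without a call (edgeR, -0.36 ± 0.31, adjusted p = 0.446 in IUGR; -0.59 ± 0.31, adjusted p = 0.239 in NS). The membrane anchor Sdhc ranged over 69.9 to 99.7 CPM in all libraries. The other anchor, Sdhd, had 72.3 to 131 CPM at week 8 and 137 to 153 CPM at postnatal day 3. Sdha is the longest of the 4 at 2859 bases, and Sdhb the shortest at 1073.

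The 8 members of complex III summed to 1908 and 1056 CPM in IUGR and 1982 and 949 CPM in NS at week 8, against 1688 and 1636 CPM in IUGR and 1889.6 and 1583 CPM in NS at postnatal day 3, and 0 were called in either IUGR or NS. Uqcrc1, a core protein of the matrix side, had the smallest p in IUGR without a call (185 and 266 CPM in IUGR and 162 and 251 CPM in NS at week 8, against 144 and 168 CPM in IUGR and 166 and 168 CPM in NS at postnatal day 3; edgeR, 0.64 ± 0.30, adjusted p = 0.182). In NS it was Uqcrq, whose replicates at week 8 differ as given above (edgeR, 1.14 ± 0.68, adjusted p = 0.289). Uqcrfs1, the Rieske iron-sulphur protein, hardly varied, with 129 to 164 CPM over the 8 libraries.

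The 18 members of complex IV summed to 5142 and 2695 CPM in IUGR and 5100.0 and 2122 CPM in NS at week 8, against 3908 and 3882 CPM in IUGR and 4499.8 and 3822 CPM in NS at postnatal day 3. Cox4i1, the common isoform of the largest nuclear subunit, had 842 and 511 CPM in IUGR and 802 and 404 CPM in NS at week 8, against 465 and 486 CPM in IUGR and 534 and 483 CPM in NS at postnatal day 3. In replicate 1 of week 8 it was above all postnatal day 3 libraries in both IUGR and NS, in replicate 2 of NS it was below them all, and it was not called (edgeR, 0.61 ± 0.39, adjusted p = 0.306 in IUGR; 0.27 ± 0.39, adjusted p = 0.663 in NS). Cox5a, a subunit that enters early in assembly, had 77.8 to 119.9 CPM. Cox6b1, the common partner of Cox6b2, had 417 and 139 CPM in IUGR and 417 and 142 CPM in NS at week 8, Cox7b 457 and 104 CPM in IUGR and 485 and 87.0 CPM in NS and Cox7a2l 283 and 147 CPM in IUGR and 281 and 132 CPM in NS, each lower in replicate 2. At postnatal day 3 Cox6b1 had 401 to 490.0 CPM, Cox7b 428 to 531 CPM and Cox7a2l 251 to 283 CPM. The 17 members of complex V summed to 5431 and 4203 CPM in IUGR and 5485 and 3656 CPM in NS at week 8, against 5431 and 5513 CPM in IUGR and 5676 and 5368 CPM in NS at postnatal day 3. Steadiest of these 17 were Atp5b, the beta subunit that makes ATP, with 1007 to 1282 CPM, and Atp5a1, the alpha subunit, with 851 to 968 CPM over the 8 libraries. Atp5a1 shares exon sequence with Haus1 and Cox4i1 with Emc8 in the annotation.

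All 84 members together made up 18850.4 and 11741 CPM in IUGR and 18989 and 10049.5 CPM in NS at week 8, against 16628 and 16686 CPM in IUGR and 18141 and 16212 CPM in NS at postnatal day 3. As means, that was 15296 ± 5027 CPM in IUGR and 14519 ± 6321 CPM in NS at week 8, against 16657 ± 40.7 CPM in IUGR and 17177 ± 1364 CPM in NS at postnatal day 3 (SD, n = 2 each). Scaled by gene length to TPM, the sum was 39606 and 36704 TPM in IUGR and 37121 and 32539.8 TPM in NS at week 8, against 32577 and 33677 TPM in IUGR and 32727 and 30375 TPM in NS at postnatal day 3. On this scale all week 8 libraries except NS replicate 2 were above all of postnatal day 3, whereas on the CPM scale the 2 replicates of week 8 lay on either side of it. The TPM totals include Rpph1 here too, so the libraries numbered 2 of week 8 are scaled unlike the rest. In whole tissue, fewer cells of a type and less RNA per cell cannot be told apart.

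The muscle-type and other restricted isoforms were far below their common partners in every library. Per base of gene length, Cox6a2, the heart and skeletal muscle isoform, made up 0.363 to 0.722% of Cox6a1 and Cox6a2 together. Cox4i2, known from lung, made up 0.0603 to 0.270% of the Cox4 pair, Cox6b2, known from testis, 0.196 to 1.16% of the Cox6b pair, and the muscle isoform Cox7a1 0.560 to 2.48% of Cox7a1 and Cox7a2. In CPM, Cox6a2 had 2.70 and 2.81 CPM in IUGR and 1.69 and 2.00 CPM in NS at week 8, against 1.30 and 1.27 CPM in IUGR and 0.825 and 1.03 CPM in NS at postnatal day 3. The ages did not overlap, but it was not called (edgeR, 1.20 ± 0.40, adjusted p = 0.086 in IUGR; 1.02 ± 0.41, adjusted p = 0.142 in NS). Cox7a1 had 3.25 and 0.754 CPM in IUGR and 5.14 and 1.16 CPM in NS at week 8, against 1.42 and 1.54 CPM in IUGR and 2.41 and 1.83 CPM in NS at postnatal day 3, with replicate 1 above replicate 2 at week 8. Cox4i2 and Cox6b2 ranged over 0.441 to 1.89 CPM and 1.05 to 3.38 CPM.

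Cox8b, the muscle isoform beside Cox8a, had 0.0686 to 0.338 CPM in 5 libraries and 0 counts in both NS libraries of postnatal day 3, where 0 counts allow up to 0.206 and 0.171 CPM. It reached 3.61 CPM (47 counts) in NS replicate 1 of week 8. The same library held 6696 CPM of 6 choroid plexus markers, against 62.0 to 79.6 CPM in the other 3 of week 8, and 2166 CPM of 6 meninges markers, against 485 to 1065 CPM. At postnatal day 3, NS replicate 2 held 6280.2 CPM of the choroid plexus markers with 0 counts of Cox8b, and IUGR replicate 1 held 3223 CPM of them with 0.170 CPM of Cox8b. The Cox8b value rests on 1 library, and what part cells of the choroid plexus or the meninges had in it was not tested. Cox8c and Cox7b2, both known from testis, had 0 to 0.171 CPM and 0 to 0.421 CPM. The 3 genes for the c subunit, which differ in their mitochondrial import signals and yield the same mature protein, kept similar shares: per base of length Atp5g1 made up 26.8 to 38.6%, Atp5g2 26.1 to 30.3% and Atp5g3 33.4 to 43.6% of their sum. The lowest Atp5g1 share and the highest Atp5g3 share were both in NS replicate 2 of week 8. In CPM, Atp5g1 had 165 and 134 CPM in IUGR and 174 and 126 CPM in NS at week 8, against 167 and 197 CPM in IUGR and 221 and 213 CPM in NS at postnatal day 3, and was not called at either exposure (edgeR, -0.18 ± 0.24, adjusted p = 0.621 in IUGR; -0.50 ± 0.24, adjusted p = 0.196 in NS). Atp5g2 ranged over 92.6 to 130.0 CPM and Atp5g3 over 127 to 171 CPM in the 8 libraries.

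Between IUGR and NS no respiratory chain gene passed the test at either age. At week 8, 0 members and 0 of all 15999 genes (0.0% of genes) were called, and at postnatal day 3 it was again 0 members and 0.0% of genes. The difference between the effects at the 2 ages was called for 0 members and 0.0% of genes (edgeR quasi-likelihood F test for all 3). At an unadjusted p under 0.05 there were 0 members in each, beside 161 genes at week 8, 96 at postnatal day 3 and 82 for the difference. DESeq2 and limma voom called 0 members in each as well, and DESeq2 called 1 other gene at week 8. The smallest adjusted p of a member was 1.0 in the fit to all 8 libraries. That fit takes the spread of a gene from both ages, so week 8 replicate differences also enter the SE at postnatal day 3. With each age fitted alone, 839 of 15435 genes at postnatal day 3 and 29 of 15143 at week 8 had an unadjusted p under 0.05 (edgeR). Again 0 members were among them. The lack of calls does not show equal expression. The members' median log2 fold change was 0.13 at week 8, with 68 of 80 above 0, and -0.07 at postnatal day 3, with 26 of 80 above 0, beside medians of 0.02 and 0.01 over all genes. The week 8 median was turned or multiplied by leaving out 1 library: it was -0.26 without IUGR replicate 1, 0.47 without IUGR replicate 2, 0.69 without NS replicate 1 and -0.27 without NS replicate 2 of week 8. The median at postnatal day 3 was 0.01 without NS replicate 1 and -0.14 without NS replicate 2 of that age. With both libraries numbered 2 of week 8 left out, the week 8 median was 0.09, with 60 of 81 members above 0, and with both numbered 1 left out it was 0.24, with 64 of 80 above 0.

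The members with the smallest p in each complex had an adjusted p of 1.0 in all 3 tests. At week 8 Ndufs8 of complex I had 83.9 and 89.3 CPM in IUGR and 76.7 and 66.5 CPM in NS, a log2 fold change of 0.35 ± 0.19. Sdhc had 97.3 and 84.0 CPM in IUGR and 95.9 and 69.9 CPM in NS (0.21 ± 0.22), Uqcrc2, a core protein of complex III, 239.5 and 255 CPM in IUGR and 252 and 180.0 CPM in NS (0.27 ± 0.23), and Cox6a2 2.70 and 2.81 CPM in IUGR and 1.69 and 2.00 CPM in NS (0.65 ± 0.39). Atp5j, a stalk subunit of ATP synthase, had 126 and 129 CPM in IUGR and 129 and 97.7 CPM in NS (0.24 ± 0.20). For Ndufs8 and Cox6a2 both IUGR libraries were above both NS libraries, while for Sdhc, Uqcrc2 and Atp5j the groups overlapped. At postnatal day 3 the log2 fold changes were 0.10 ± 0.19 for Ndufs3, -0.07 ± 0.19 for Sdha, 0.14 ± 0.23 for Uqcrc2, -0.80 ± 0.69 for Cox4i2 and -0.25 ± 0.24 for Atp5g1. Cox4i2 rests on few reads there, with 0.794 and 0.441 CPM in IUGR and 1.38 and 0.799 CPM in NS. For the difference between ages they were 0.34 ± 0.27 for Ndufs8, 0.20 ± 0.27 for Sdha, 0.29 ± 0.42 for Uqcrc1, 1.89 ± 0.97 for Cox4i2 and 0.42 ± 0.40 for Atp5sl (all adjusted p = 1.0, edgeR).

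**Figure D5:**
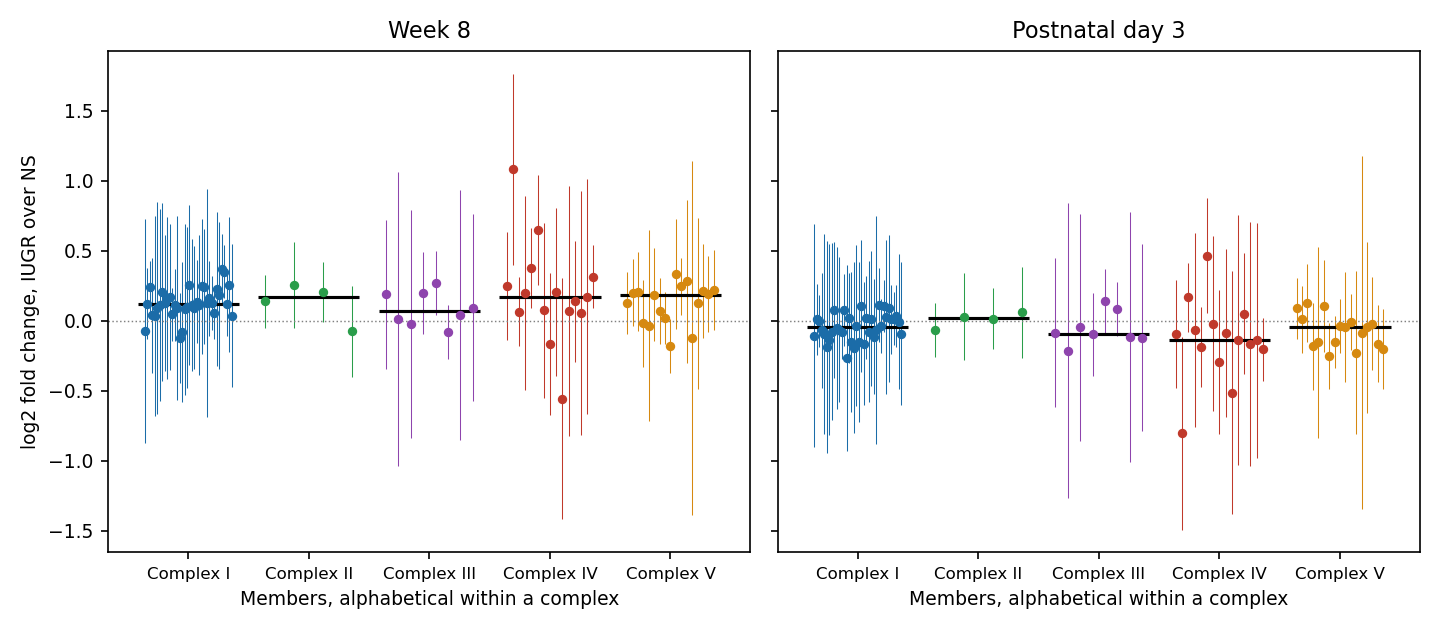
Log2 fold change of IUGR over NS (vertical axis) of the 80 tested members, grouped by complex, at week 8 (left) and postnatal day 3 (right); points are genes with ± 1 SE and black lines the medians of a complex. Most points lie slightly above 0 at week 8 and near or below 0 at postnatal day 3, and 0 members passed the test.

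The genes that feed electrons to the chain, or take up its ATP, form other lists, whose counts are to be read against the 9.34% of all genes called higher and 7.48% called lower in IUGR and the 7.7% and 6.44% in NS. Of 26 tested genes of glycolysis and pyruvate entry, 15 were higher at week 8 in IUGR and 10 in NS, with 0 lower in both (edgeR; median log2 fold change 1.17 and 1.03). Eno2, the neuronal enolase, had 537 and 854 CPM in IUGR and 500.4 and 902 CPM in NS at week 8, against 70.3 and 105 CPM in IUGR and 87.6 and 94.9 CPM in NS at postnatal day 3. Aldoc, the brain aldolase of astrocytes, had 1411 and 864 CPM in IUGR and 1345 and 1027 CPM in NS at week 8, against 193 and 202 CPM in IUGR and 232 and 180.2 CPM in NS at postnatal day 3. In the citrate cycle 3 of 14 were higher in IUGR and 1 in NS, the share in NS being below that of all genes, with 0 lower, Idh3b of isocitrate dehydrogenase in both (1.18 ± 0.22, adjusted p = 0.0182 in IUGR; 1.09 ± 0.22, adjusted p = 0.0255 in NS). Among 14 carriers and porins 1 was higher in both, a share below that of all genes, Ckmt1, the mitochondrial creatine kinase that passes on the phosphate of ATP, with 180.4 and 174 CPM in IUGR and 169 and 185 CPM in NS at week 8, against 33.2 and 43.9 CPM in IUGR and 48.4 and 43.7 CPM in NS at postnatal day 3. Its log2 fold change was 2.30 ± 0.22, adjusted p = 0.00344 in IUGR and 1.97 ± 0.22, adjusted p = 0.00573 in NS (edgeR).

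Of 48 assembly factors, 3 were higher and 1 lower at week 8 in IUGR, and 2 were higher and 2 lower in NS (edgeR), shares below those of all genes in either direction. Ttc19, which clears Rieske protein fragments from complex III, had 98.5 and 111 CPM in IUGR and 96.8 and 104 CPM in NS at week 8, against 51.1 and 54.6 CPM in IUGR and 45.6 and 49.3 CPM in NS at postnatal day 3 (1.10 ± 0.18, adjusted p = 0.0136 in IUGR; 1.11 ± 0.18, adjusted p = 0.0148 in NS). Coa7, a complex IV assembly factor, was lower (-1.22 ± 0.28, adjusted p = 0.0319 in IUGR; -1.10 ± 0.28, adjusted p = 0.0468 in NS). Of 16 genes for cytochrome c, coenzyme Q and the ATP synthase inhibitor, 2 were higher in IUGR and 1 in NS, with 0 lower, and Coq2, which joins the ring and tail of coenzyme Q, in both (1.34 ± 0.21, adjusted p = 0.0105 in IUGR; 0.93 ± 0.20, adjusted p = 0.0315 in NS, edgeR). Of 21 regulators of mitochondrial biogenesis, 3 were higher in both (Esrra, Ppara and Sirt3), and Nrf1, which binds the motif sought above, was lower in IUGR (-0.81 ± 0.19, adjusted p = 0.0314) and missed the threshold in NS (-0.66 ± 0.19, adjusted p = 0.0619, edgeR). Ppargc1a, the coactivator of this programme, was not called (0.60 ± 0.24, adjusted p = 0.135 in IUGR; 0.91 ± 0.24, adjusted p = 0.0525 in NS, edgeR). Of 77 mitochondrial ribosomal proteins, 3 in IUGR and 1 in NS were lower and 0 higher (edgeR), again below the shares of all genes.

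Cell type markers moved between the ages too. All 7 myelin markers were higher at week 8 in IUGR and NS, their sum running from 4257 to 5551 CPM in IUGR and 5045 to 5488 CPM in NS at week 8, against 97.6 to 115 CPM in IUGR and 132 to 136 CPM in NS at postnatal day 3. Of 7 astrocyte markers 5 were higher in IUGR and 4 in NS, with sums of 4344 to 5274 CPM over the week 8 libraries and 1058 to 1392 CPM over those of postnatal day 3. Of 7 markers of progenitors and cycling cells 5 were lower in IUGR and 4 in NS, with sums of 70.4 to 126 CPM at week 8 and 1302 to 1617 CPM at postnatal day 3. None of these markers was at 0 in every library. Their part in the differences of Sdha, Cox8a and the other called members was not tested.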

How the data were processed

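The members and gene lists were chosen with earlier results of these data known. Raw read counts and a length for each gene were deposited by the authors, with 1 table per age. Tools in the submitters' processing notes are featureCounts 1.6.1, HISAT2 2.1.0, SAMtools 1.9, cutadapt 1.16 and DESeq2 1.26.0, and the build is mm10. The annotation, the strand setting and the treatment of multiply matching reads are not given in those sources. Per the labels' protocols, ribosomal RNA was removed and cDNA was random primed. Groups came from the labels, and the authors' normalized tables were not used.

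With edgeR 4.0.16 (R 4.3.3), 4 group means were fitted to all 8 libraries (TMM, default expression filter, quasi-likelihood F test). The SE is the log2 fold change over the square root of F. The fit was tested on simulated data. CPM are counts over library totals, and differences within a replicate number use log2(CPM + 1). TPM used the deposited lengths. Positions are from GENCODE M21. Floors of 3 counts cover counting error only. Named by rule were the isoform families, Ndufa4, at least 1 core subunit per complex, and per comparison, complex and direction up to 3 called members with the smallest p, or else the 1 member with the smallest p. Alternatives were RLE and upper-quartile factors, other filters, DESeq2 1.42.0, limma voom 3.58.1, a replicate block, each library or same-numbered pair left out, each age alone, small RNA genes left out, and, added later, a length trend. A protein comparison was not made, and some values are not reported here.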

Additional observations from a re-analysis of the deposited data

How the results depend on the processing

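For the 3 comparisons of IUGR with NS, 0 members were called under every alternative run. Between ages, the replicate block, which adds the replicate number within each age to the edgeR fit, called 13 members higher and 1 lower in IUGR and 7 higher and 3 lower in NS, with members' medians of 0.28 and 0.03. Whether the numbers pair the samples is not stated in the labels. Replicate differences of IUGR and NS correlated at 0.854 over all genes at week 8 and at -0.075 at postnatal day 3. Libraries numbered 2 shared the near absence of Rpph1 at week 8 and high Xist at postnatal day 3. What else a shared number stands for is not known. DESeq2 called 4 members higher in NS. Without both libraries numbered 2 of week 8 the counts were 25 higher and 2 lower in IUGR and 16 higher and 3 lower in NS, and without both numbered 1 they were 13 and 44 in IUGR and 10 and 48 in NS. Without both numbered 2 of postnatal day 3 there were 0 higher in IUGR and in NS. With 1 library left out in turn, members called higher ran from 0 to 8 in IUGR and 0 to 3 in NS, and lower from 0 to 0 in IUGR and 0 to 5 in NS. RLE and upper-quartile factors, other count filters, limma voom, the removal of small RNA genes and the length trend kept each of these counts within 1.5 times. Upper-quartile factors moved the median of all genes in IUGR from 0.02 to -0.09, and the members' median from -0.08 to -0.15. The fold changes of the 6 members called in IUGR kept their sign under all 20 alternatives: Sdha ran from 1.32 to 1.49, Ndufs8 from 0.61 to 0.95 and Cox8a from 1.63 to 2.46, the last with the length trend. The causes of the other changes were not tested.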
